A study of Mus musculus with 7 samples.

Results

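The genes described here encode the nuclear subunits of the oxidative phosphorylation system of mitochondria. They were chosen by name from the deposited count table: names beginning with Ndufa, Ndufb, Ndufc, Ndufs or Ndufv and a digit, the genes Sdha to Sdhd and Cycs, and names beginning with Uqcr, Cox4 to Cox8 or Atp5, leaving out 13 pseudogene names that carry -ps. No expression value entered the rule, though members were proposed with earlier results of these data known. The rule took 89 of 55367 genes. Of these, 86 had enough counts to be tested, and Cox7b2, Cox8b and Cox8c did not. Gene expression had been measured by bulk RNA-seq of total RNA from neurons of the mouse medial prefrontal cortex with projections to the lateral habenula, in 3 libraries labelled noCRS and 4 labelled CRS. All 7 libraries carry the strain label C57BL/6J and the age label P90, and no allele, agent or dose is labelled in either group. The series title speaks of chronic stress, but the labels do not spell out CRS, its length or how the neurons were marked and collected. The labels also do not say whether libraries came from separate animals, so every p-value below measures only the spread between these libraries, which may be technical.

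Oxidative phosphorylation couples the oxidation of nutrients to the making of ATP at the inner mitochondrial membrane. Complexes I and II pass electrons from NADH and succinate to ubiquinone, complex III passes them to cytochrome c, and complex IV passes them to oxygen. Complexes I, III and IV pump protons as they do so, and complex V, the ATP synthase, lets the protons flow back to make ATP. Neurons draw most of the ATP for ion pumping and synaptic transmission from this pathway. Most subunits are encoded in the nucleus and imported, while a small core is encoded by the mitochondrial genome.

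The libraries held between 28677703 and 39965667 counts, and 85 to 88 of the 89 members had at least 1 count in any one library. Levels are given as CPM, counts scaled to a common library size with TMM, a correction for library composition, and 3 counts in a library corresponded to 0.0724 to 0.0990 CPM, which covers counting error only. The groups differed in their markers of cell type, and this touches every comparison below. Over 8 markers of excitatory cortical neurons, the summed level was 20.1 to 39.9 CPM in noCRS and 496 to 747 CPM in CRS, and Slc17a7, Neurod2 and Tbr1 each had 0 counts in 2 of the 3 noCRS libraries. Over 8 pan-neuronal markers the sums were 373 to 458 and 3059 to 4221 CPM and over 6 inhibitory markers 34.6 to 37.5 and 150 to 661 CPM. Slc17a7, Neurod2 and Tbr1, defining markers of excitatory neurons, were thus at or near 0 in the noCRS libraries, which goes against their label. The list was not uniform: Nrgn was at 12.1 to 14.7 CPM in noCRS and 154 to 240 CPM in CRS. Camk2a overlapped, at 2.83 to 13.5 CPM in noCRS and 11.1 to 25.7 CPM in CRS (edgeR adjusted p = 0.589). Pan-neuronal markers were present in noCRS at levels that differed by gene. The noCRS libraries held Snap25, a synaptic membrane fusion protein, at 158 ± 57.7 CPM against 2747 ± 611 CPM for CRS. Map2, a protein of dendrite microtubules, was at 186 ± 19.0 and 175 ± 53.7 CPM, with groups that overlapped. Slc32a1, the inhibitory vesicle transporter, was near the floor in both groups, with at most 4 counts in any library. Astrocyte markers summed to 10771 to 14032 CPM in noCRS and 6342 to 12937 CPM in CRS, and oligodendrocyte markers to 31265 to 36150 and 25714 to 50553 CPM, with groups that overlapped in both lists. Oligodendrocyte precursor markers were at 1792 to 2127 CPM in noCRS and 999 to 1407 CPM in CRS. Microglial markers stayed between 1.03 and 22 CPM in all libraries, with Tmem119 at 0 counts in every noCRS library and 1 to 163 counts in the CRS libraries, and endothelial and mural markers were at 59.2 to 221 and 134 to 617 CPM. The part of these differences in the results below was not tested. In bulk samples, fewer cells of a type and less RNA per cell cannot be told apart.

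Transcripts of the nuclear subunits were higher in the CRS libraries across most of the list, by a modest amount. Their summed level was 12494, 13031.5 and 12625 CPM in noCRS-1 to noCRS-3 and 17157, 19436, 15877 and 16947 CPM in CRS-1 to CRS-4. The groups did not overlap, and the CRS mean was 1.36 times the noCRS mean, or 1.31 times with CRS-2 left out. As a share of all counts, the members took 1.30% to 1.42% of the noCRS libraries and 1.49% to 1.796% of the CRS libraries. The log2 fold change was above 0 for 78 of 86 members tested, where 49.2% of all 17833 genes tested had one above 0, and the median was 0.42 against -0.02 for all genes. Single members seldom passed the test: 3 members were called higher and 0 lower at an adjusted p under 0.05 in edgeR (quasi-likelihood test, Benjamini-Hochberg over all genes), where 2.3% of all genes were called in either direction and 2.07% were called higher. DESeq2 called 17 members higher, where it called 6.84% of all genes with an adjusted p higher, and 1 lower, Sdhc, where it called 2.3% lower. Limma-voom called 6 members, all higher, where it called 2.93% of all genes higher. With no adjustment in edgeR, 41 members were higher and 1 was lower at p under 0.05, where 9.67% of all genes were higher. All 4 CRS libraries lay above all 3 noCRS libraries for 44 members, where 10.1% of all genes did so. All CRS libraries lay below for 1 member, Sdhc, where 6.74% of all genes did so.

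Part of that background depends on level, since most members are abundant. Among genes averaging at least 20 CPM over the 7 libraries, 55.8% of 7542 genes had a log2 fold change above 0, and 16.5% had every CRS library above every noCRS library. Of 76 members at that level, 74 had a log2 fold change above 0 and 44, or 57.9%, had every CRS library above. In edgeR 301 of the 7542 genes and 3 of the 76 members were called higher, which are similar shares. At unadjusted p under 0.05 in edgeR, 1220 of these genes and 41 of these members were higher. The 10 tested members below that level are Atp5g2 and 9 isoforms or rare relatives, and their fold changes split into 4 above 0 and 6 below. Across the 76 abundant members, level per kilobase of exon and log2 fold change had a Pearson r of -0.03, a description over genes of the same libraries. CRS-2 was the highest of the CRS libraries for 49 of these 76 members and CRS-3 the lowest for 33.

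**Figure D1:**
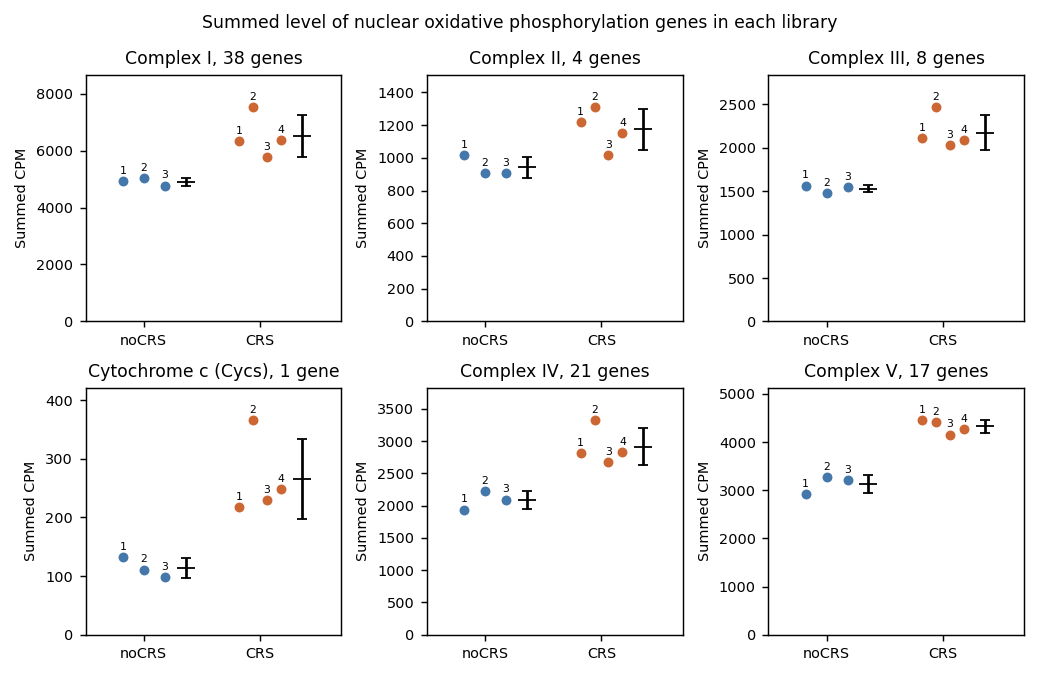
Summed CPM of the members of each complex, and of cytochrome c alone, in every library. Points are libraries with their replicate number, the bar is the mean and SD (3 noCRS, 4 CRS). Every CRS library lies above every noCRS library except in complex II, where CRS-3 at 1015 CPM meets noCRS-1 at 1016 CPM.

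Complex by complex, the summed level was higher in CRS by a similar factor in complexes I, III, IV and V, and the groups overlapped for complex II, as the plot of summed CPM shows. The ratio of the CRS mean to the noCRS mean was 1.33 for complex I, 1.42 for complex III, 1.39 for complex IV and 1.38 for complex V. Complex II had a ratio of 1.25, from 942 ± 64.1 CPM (SD, n = 3) to 1174 ± 125 CPM (SD, n = 4). The median log2 fold changes were 0.38 over 38 tested members of complex I, 0.33 over 4 of complex II, 0.53 over 8 of complex III, 0.51 over 18 of complex IV and 0.44 over 17 of complex V. Differences between complexes were not tested. The sums are led by different members in each complex, so the members follow by their place in the chain.

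**Figure D2:**
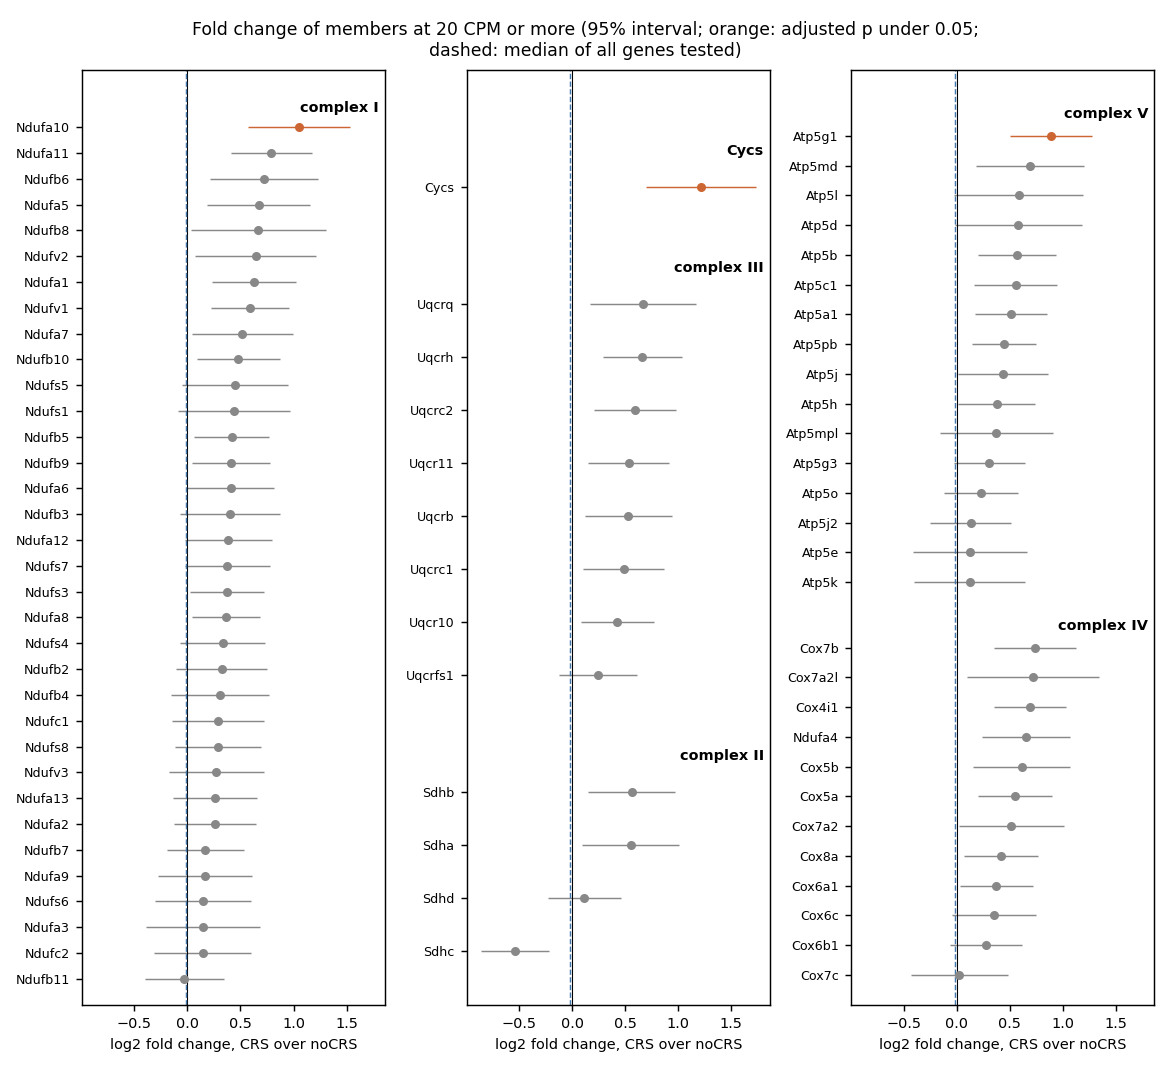
Log2 fold change (CRS over noCRS) with its 95% interval for 75 of the 76 members averaging at least 20 CPM, by complex. The 3 orange members, Cycs, Ndufa10 and Atp5g1, passed an adjusted p of 0.05; the dashed line is the median of all genes tested, -0.02, and only Sdhc and Ndufb11 lie below 0.

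Cycs, the somatic cytochrome c that carries electrons from complex III to complex IV and that also triggers caspase activation once released from mitochondria, had the largest log2 fold change among the 76 abundant members. The gene lies on chromosome 6 (GRCm38, 50562563 to 50566538, minus strand). Its level was 132, 111 and 98.5 CPM in noCRS-1 to noCRS-3 and 217, 366, 229 and 248 CPM in CRS-1 to CRS-4. The groups did not overlap, and CRS-2 stood highest. The log2 fold change was 1.22 ± 0.23 (SE, edgeR adjusted p = 0.0335), a rise of 2.33-fold in mean CPM and of 2.03-fold with CRS-2 left out. The call held without CRS-2 (adjusted p = 0.0347) and was lost when any of the other 6 libraries was left out, with adjusted p up to 0.148 without noCRS-2, and with libraries scaled by their totals alone (0.0507). Its fold change exceeded that of its electron donor complex: the ratio of Cycs to Uqcrc1, a core subunit of complex III, was 0.194 ± 0.019 in noCRS and 0.317 ± 0.035 in CRS on the CPM scale, with no overlap.

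Stretches upstream of the start sites of some members show motifs of nuclear respiratory factor 1 (NRF1) and of ETS factors such as GABP. Both are activators long known to act on nuclear genes of the respiratory chain. Promoters from RefSeq on build GRCm38.p6 matched 69 of the 89 members, and the 250 bases before each start were searched on both strands for GCGCATGC, the core of the NRF1 site, and for CCGGAAG, an ETS motif. The genes below were picked and do not reflect how common the motifs were. Their 30-base stretches show both motifs in capitals. Cycs had the largest log2 fold change of the 76 abundant members. Sdhb, Atp5g2 and Uqcrh did not pass the test in edgeR, though DESeq2 called Uqcrh higher. Ndufa10 and Atp5g1 rose while holding neither motif:
Cycs, chr6:50566611-50566640, minus strand: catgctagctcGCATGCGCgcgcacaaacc
Sdhb, chr4:140961206-140961235, plus strand: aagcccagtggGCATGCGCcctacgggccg
Atp5g2, chr15:102671071-102671100, minus strand: tggctccggccGCGCATGCGCagagccttc
Uqcrh, chr4:116075071-116075100, minus strand: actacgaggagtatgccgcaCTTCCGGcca
Ndufa10, chr1:92473759-92473788, minus strand: ccgtcgcgttcatgtccctctggtccttga
Atp5g1, chr11:96075632-96075661, minus strand: agctgagcgctcagaccaagggctaaagct
In Atp5g2 the capitals span 2 overlapping copies, one on each strand. The last 2 lines are the 30 bases just before the start. RefSeq places the start of Atp5g2 1305 bases from the gene start in the count table, and those of the other 5 genes within 102 bases.

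The NRF1 core was present before 9 of the 69 members, or 13%, against 4.74% of 11651 tested genes with a promoter. The 9 were Cycs, Ndufa11, Ndufa6, Ndufa8, Sdhb, Cox6a1, Atp5g2, Atp5k and Atp5l. The ETS motif was present before 12 members, or 17.4%, against 14.4% of tested genes. Members with and without the NRF1 core had median log2 fold changes of 0.41 and 0.42, and those with and without the ETS motif 0.38 and 0.42. A motif match is a description of these letters only. Within the 9, log2 fold changes ran from -0.08 for Atp5g2 to 1.22 for Cycs.

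Complex I, the NADH dehydrogenase, is the largest complex, with a catalytic core and a shell of accessory subunits around it. Core and accessory members gave similar values: all 7 nuclear core members had log2 fold changes above 0 with a median of 0.38, and 28 of 31 accessory members had values above 0 with a median of 0.36. Every CRS library lay above every noCRS library for 3 core members (42.9%) and 12 accessory members (38.7%). Of all genes tested 10.1% did so, and of those averaging at least 20 CPM 16.5%. Ndufv1, which binds NADH and its flavin, was at 123, 147 and 117 CPM in noCRS and 205, 204.5, 165 and 203 CPM in CRS. Its groups did not overlap, and its log2 fold change was 0.59 ± 0.16 (SE, edgeR adjusted p = 0.122).

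Ndufa10, an accessory subunit of the membrane arm related to nucleoside kinases, was the complex I member that rose in edgeR (chromosome 1, 92439010 to 92473860, minus strand). It was also the 1 that limma-voom called, with 2.93% of all genes called higher. DESeq2 called 5 higher, with 6.84% of all genes called higher: Ndufa1, Ndufa10, Ndufa11, Ndufb5 and Ndufv1. Ndufa10 was at 108, 100.2 and 79.2 CPM in the noCRS libraries and 236, 206, 146 and 206 CPM in the CRS libraries. Every CRS library stood above the noCRS range, CRS-3 least. The log2 fold change was 1.05 ± 0.21 (SE, edgeR adjusted p = 0.0439). The call held without CRS-3 (adjusted p = 0.0442) and was lost without any of the other 6 libraries, with adjusted p up to 0.170 without noCRS-3. It was also lost with library totals alone (0.0893), with the size factors of DESeq2 in edgeR (0.0536) and when every gene with at least 1 count was tested (0.0594). Next came Ndufa11, an accessory subunit of the membrane arm, at 77.6, 91.2 and 86.9 CPM in noCRS and 155, 167, 134 and 133 CPM in CRS. Its groups were well apart but it fell short of the threshold (log2 fold change 0.79 ± 0.17, edgeR adjusted p = 0.0535). It passed in DESeq2 (adjusted p = 0.000118), and in edgeR when only genes with at least 10 counts in every library of a group were tested (0.0409).

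Some accessory members of complex I lay nearer to the all-gene median of -0.02. Ndufb11, an X-linked subunit of the membrane arm, was at 158 to 219.5 CPM in noCRS and 171 to 201 CPM in CRS (log2 fold change -0.03), and Ndufc2 at 161 to 249 and 207 to 280 CPM (0.14). Ndufc2 had the highest level per kilobase in complex I, at 302 CPM per kb over all libraries, while Ndufb2 had the lowest of the abundant members, at 20.03. The 3 members below 0 were Ndufb11 and the rare relatives Ndufa11b and Ndufs6b, which did not reach 1 CPM in any library.

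Complex II, succinate dehydrogenase, also a step of the tricarboxylic acid cycle, consists of 4 nuclear subunits, and these divided. Sdha carries the flavin and Sdhb the iron-sulfur clusters, while Sdhc and Sdhd anchor the enzyme in the membrane. Sdha was at 310.5, 217 and 256 CPM in noCRS and 482, 354, 312 and 384 CPM in CRS (log2 fold change 0.55 ± 0.20, edgeR adjusted p = 0.235). Sdhb was at 319, 336 and 300.2 CPM in noCRS and 437, 605, 387 and 449 CPM in CRS (0.56 ± 0.18, adjusted p = 0.188). Both had CRS libraries above noCRS libraries throughout, for Sdha by a margin of under 2 CPM. Neither passed the test. Sdhd was at 191.5, 188 and 170 CPM in noCRS and 180, 232, 188 and 193 CPM in CRS, and the groups overlapped (0.11 ± 0.15).

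Sdhc (chromosome 1, 171127165 to 171150603) lay lower in every CRS library, at 120, 120, 128 and 126 CPM, than in any noCRS library, at 195.5, 165.5 and 178 CPM. The spread within CRS was small, with an SD of 4.17 CPM around a mean of 123.5 CPM. Its log2 fold change of -0.54 ± 0.14 did not pass in the edgeR test (adjusted p = 0.106; unadjusted p = 0.00447), and across the alternative settings the adjusted p ran from 3.98e-05 with DESeq2 to 0.373 with a replicate block. With libraries scaled by their totals alone it passed (adjusted p = 0.0483). The ratio of Sdhc to Sdhb, which does not depend on the scaling, was 0.613, 0.492 and 0.594 in noCRS and 0.274, 0.199, 0.331 and 0.281 in CRS. The 2 ranges lay far apart, and the mean ratio went from 0.567 ± 0.065 to 0.271 ± 0.055. The ratio of Sdhd to Sdhb likewise went from 0.575 ± 0.023 to 0.427 ± 0.044 with no overlap. These pairs were picked with the values known, so the ratios carry no test. Per kilobase of exon, Sdhc was the least abundant of the 4 in both groups, at 55.3 ± 4.63 and 38.0 ± 1.28 CPM per kb, against 142 ± 8.03 and 210 ± 42.2 for Sdhb.

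**Figure D3:**
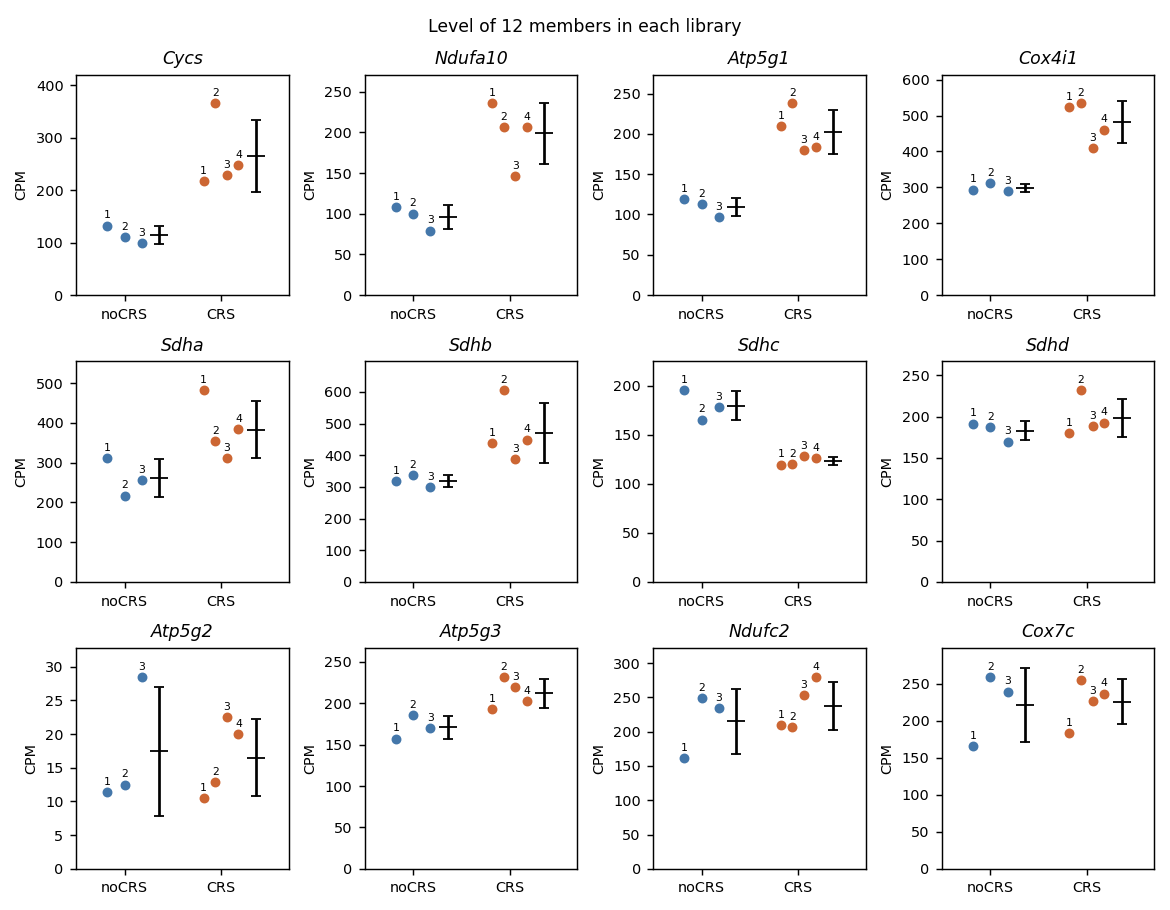
CPM of 12 members in every library, points with replicate numbers, bars mean and SD (3 noCRS, 4 CRS), each axis from 0. Cycs, Ndufa10, Atp5g1, Cox4i1, Sdha, Sdhb and Atp5g3 are higher in every CRS library, Sdhc is lower in every CRS library, and Sdhd, Atp5g2, Ndufc2 and Cox7c overlap.

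Complex III, which hands electrons to cytochrome c, was the most uniform over the members taken by name. All 8 members had log2 fold changes above 0, from 0.24 for Uqcrfs1 to 0.67 for Uqcrq. For 7 of 8 every CRS library lay above every noCRS library, where 10.1% of all genes did so. In edgeR 0 members passed the adjusted test and 7 were higher at unadjusted p under 0.05, where 9.67% of all genes were. DESeq2 called 2 higher, Uqcrh and Uqcrc2, with 6.84% of all genes called higher. Uqcrh, the hinge subunit beside cytochrome c1, was at 107, 114 and 98.5 CPM in noCRS and 175, 195, 154 and 151 CPM in CRS. The groups were apart, and it came nearest the threshold in edgeR (log2 fold change 0.66 ± 0.16, edgeR adjusted p = 0.0874). The core pair Uqcrc1 and Uqcrc2 had log2 fold changes of 0.49 and 0.59. Uqcrfs1, the Rieske iron-sulfur protein that does the chemistry of electron transfer, was the member that overlapped, at 143 to 175 CPM in noCRS and 171 to 226 CPM in CRS. Cyc1, the gene of cytochrome c1, is missed by the name rule. It also overlapped, at 132 to 181 CPM in noCRS and 168 to 255 CPM in CRS (log2 fold change 0.43).

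Complex IV, cytochrome c oxidase, has nuclear subunits that regulate and stabilise a core encoded by the mitochondrial genome. In edgeR 0 of its 18 tested members passed and 9 were higher at unadjusted p under 0.05, where 9.67% of all genes were. DESeq2 called Cox4i1, Cox5a, Cox7b and Ndufa4 higher (6.84% of all genes) and limma-voom Cox4i1 (2.93% of all genes). Cox4i1, its ubiquitous regulatory subunit 4, was at 294, 312 and 289 CPM in noCRS and 524, 534, 408.5 and 461 CPM in CRS. The groups were apart by more than the spread within noCRS, and the log2 fold change was 0.69 ± 0.15 (SE, edgeR adjusted p = 0.0547). It passed in DESeq2 (adjusted p = 0.000443), in limma-voom (0.0354), and in edgeR for genes with at least 10 counts in every library of a group (0.0436). Cox7b followed, at 80.9 ± 9.59 CPM in noCRS and 135 ± 11.7 CPM in CRS (0.74 ± 0.17, edgeR adjusted p = 0.0684), and passed in DESeq2 (0.000271). Ndufa4, long filed under complex I by its name and now counted as a complex IV subunit, was at 202, 196 and 193 CPM in noCRS and 278, 402, 260.2 and 301 CPM in CRS (0.65 ± 0.18, adjusted p = 0.130). Counted in complex I instead, it left the medians of both complexes at 0.38 and 0.50. Cox7c, in contrast, was at 165 to 259 CPM in noCRS and 183 to 255 CPM in CRS, a log2 fold change of 0.03 with a 95% interval from -0.43 to 0.48. Cox6a1 was the most abundant member of the complex per kilobase, at 455 CPM per kb over all libraries.

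Several complex IV subunits exist as isoforms known from muscle, testis, lung or hypoxic tissue, and these were scarce in both groups. Cox8c had 0 counts in all 7 libraries and Cox8b in 6. Cox7a1, the heart and muscle form, was at 3.47, 2.41 and 1.85 CPM in noCRS and 0.453, 1.90, 0.792 and 0.365 CPM in CRS, which overlapped. Its share of Cox7a transcripts per kilobase was 1.61% to 4.51% in noCRS and 0.252% to 1.13% in CRS, without overlap. Cox4i2, the isoform known from lung and low oxygen, was at 0, 0.193 and 0 CPM in noCRS and 2.33, 0, 2.21 and 2.58 CPM in CRS, so 3 of 4 CRS libraries held it and CRS-2 did not. Ndufa4l2, a hypoxia-responsive relative of Ndufa4, overlapped, at 1.48 to 7.32 and 2.22 to 13.5 CPM. Across the libraries, the common forms made up at least 98.9% of Cox4 and 98.5% of Cox6b transcripts per kilobase. The endothelial and mural marker sums given above were also lower in CRS-2 than in the other CRS libraries, at 134 CPM against 392 to 617 CPM, and their part in the Cox4i2 values was not tested.

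Complex V, the ATP synthase, has a catalytic F1 head and a membrane part that holds the proton-driven rotor and the stalk. The 5 F1 members all had log2 fold changes above 0, with a median of 0.56, and 11 of 12 members of the membrane part and stalk did, with a median of 0.38. The catalytic subunit Atp5b was at 541, 511 and 572 CPM in noCRS and 982, 695, 800.1 and 732 CPM in CRS. The other large subunit of the head, Atp5a1, was at 467, 522 and 525.5 CPM in noCRS and 717, 607, 727 and 830 CPM in CRS. Neither pair of groups overlapped, and both fell short of the threshold in edgeR (log2 fold changes 0.57 ± 0.16 and 0.51 ± 0.15, adjusted p = 0.138 and 0.155). Both passed in DESeq2 (adjusted p = 0.0161 and 0.00421) and in limma-voom (0.0464 and 0.0356). DESeq2 called 5 members of the complex higher, Atp5a1, Atp5b, Atp5g1, Atp5md and Atp5pb, and limma-voom 3, Atp5a1, Atp5b and Atp5g1. The shares of all genes called higher were 6.84% and 2.93%. At the other end of the head, Atp5e was at 44.5 to 75.5 CPM in noCRS and 58.8 to 76.6 CPM in CRS (0.13 ± 0.24).

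The rotor ring is built from subunit c, which Atp5g1, Atp5g2 and Atp5g3 encode with the same mature protein and different import sequences. Atp5g1 rose (chromosome 11, 96068852 to 96075670, minus strand): it was at 119, 112.5 and 96.8 CPM in noCRS and 209, 238, 179.7 and 183 CPM in CRS. No library of one group reached the other group's range, and the log2 fold change was 0.89 ± 0.17 (SE, edgeR adjusted p = 0.0360). Leaving out any 1 of the 7 libraries ended this call, with adjusted p from 0.0602 without CRS-2 to 0.160 without noCRS-3, as did library totals alone (0.0741) and testing every gene with at least 1 count (0.0605). Atp5g3, the most abundant of the 3 per kilobase, was at 157, 185 and 170 CPM in noCRS and 193, 232, 219.6 and 203 CPM in CRS (0.31 ± 0.14, adjusted p = 0.411). Atp5g2 was at 11.3 to 28.5 and 10.5 to 22.5 CPM and overlapped. Per kilobase, Atp5g1 made up 20.2% ± 3.15 of subunit c transcripts in noCRS and 27.8% ± 3.13 in CRS, and the ratio of Atp5g1 to Atp5g3 was 0.643 ± 0.098 and 0.958 ± 0.120, in both cases without overlap between groups.

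**Figure D4:**
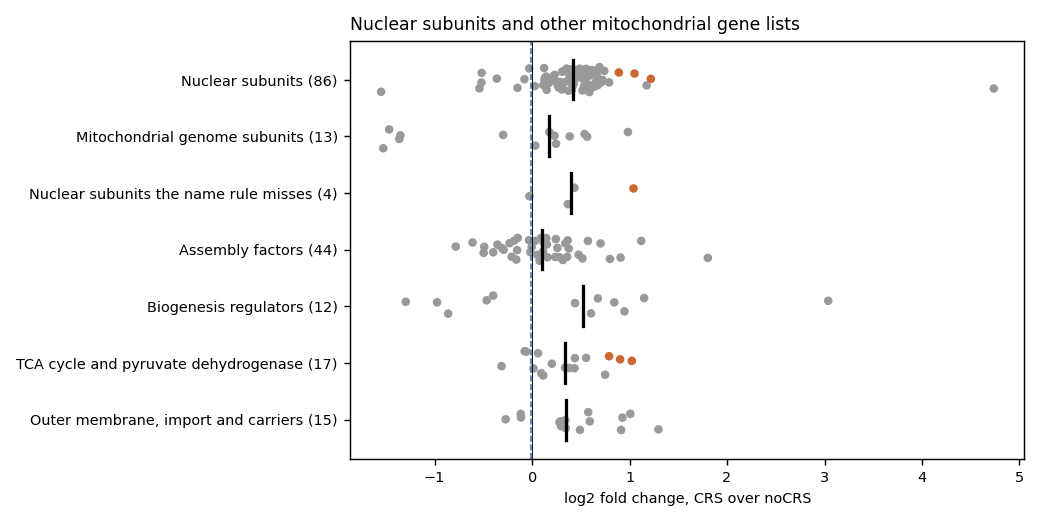
Log2 fold change (CRS over noCRS) of each tested gene in the nuclear subunit list and in 6 other mitochondrial lists, with the number tested in brackets. Black bars are list medians, orange points passed an adjusted p of 0.05, and the dashed line is the median of all genes, -0.02; the nuclear subunits centre on 0.42 and the assembly factors on 0.10.

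Neighbouring parts of the pathway gave a mixed picture, as the plot of mitochondrial gene lists shows. Among 4 nuclear subunits or partners that the name rule misses (Cyc1, Ndufab1, Dmac2l and Atpif1), Atpif1, the inhibitor that stops the ATP synthase from running in reverse, rose. It was at 132, 155 and 140.0 CPM in noCRS and 277, 355, 263 and 275 CPM in CRS, with groups far apart (1.04 ± 0.17, edgeR adjusted p = 0.0195). Its call held without CRS-1, CRS-2 or CRS-3 and was lost without CRS-4 (adjusted p = 0.0501) or any noCRS library (0.0752 to 0.0917). Of 44 assembly factors, which build the complexes without staying in them, 0 passed in edgeR, 27 had log2 fold changes above 0, and the median was 0.10. DESeq2 called Lyrm7 higher and Cox16 lower, where it called 6.84% of all genes higher and 2.3% lower. The summed level of the 44 was 2130 to 2168 CPM in noCRS and 2173 to 2827 CPM in CRS, without overlap. With no adjustment in edgeR, 5 assembly factors were higher and 1 lower at p under 0.05, where 9.67% of all genes were higher. These factors included Lyrm7, which matures the Rieske protein (4.74 ± 2.02 to 16.5 ± 4.64 CPM, edgeR adjusted p = 0.176), and Coa3 (147 ± 15.1 to 256 ± 78.7 CPM, adjusted p = 0.168).

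The mitochondrial genome's own subunits gave 0 calls among 13 in edgeR. At unadjusted p under 0.05 in edgeR 2 were higher, where 9.67% of all genes were. DESeq2 called 1 higher, mt-Nd1, where it called 6.84% of all genes higher. Every CRS library lay above every noCRS library for 2 of the 13 (15.4%), where 10.1% of all genes did so. The summed level of the 13 was 4109 to 5083 CPM in noCRS and 5359 to 5738 CPM in CRS, without overlap, a ratio of means of 1.18. The median log2 fold change was 0.18, with 8 above 0 and 5 below. The 5 below were mt-Nd4l, mt-Co2, mt-Co3, mt-Atp6 and mt-Atp8. Counts were few for mt-Nd3, at 12 to 91 per library, and for mt-Nd4l, at 1 to 21. The remaining subunits, mt-Nd1, mt-Nd2, mt-Nd4, mt-Nd5, mt-Nd6, mt-Cytb and mt-Co1, all lay above 0. mt-Co1, the catalytic subunit of complex IV, was at 1277, 995 and 817 CPM in noCRS and 1479.5, 1797, 1419 and 1395 CPM in CRS, without overlap (0.56 ± 0.19, edgeR adjusted p = 0.200). mt-Nd1, a core membrane subunit of complex I, was at 441 ± 69.2 and 640 ± 35.8 CPM, also without overlap (adjusted p = 0.140). mt-Cytb, the most counted of them, was at 2197 ± 239 and 2247 ± 32.4 CPM. mt-Atp6 ran from 5.72 to 58.6 CPM within noCRS alone. Near-identical copies in the nuclear genome can take reads of mt-Atp6, mt-Atp8, mt-Co2 and mt-Co3, which leaves these genes uncertain. The part of such copies in these values was not tested.

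Enzymes that feed the chain included 3 risers in edgeR among 17 genes of the tricarboxylic acid cycle and pyruvate dehydrogenase, where 2.07% of all genes were called higher. The median log2 fold change of the 17 was 0.34. DESeq2 and limma-voom each called the 3 risers and Pdha1 higher, with 6.84% and 2.93% of all genes called higher. Mdh2, the mitochondrial malate dehydrogenase, rose from 503 ± 33.9 to 870 ± 80.5 CPM (edgeR adjusted p = 0.0289). Sucla2, the ATP-forming subunit of succinyl-CoA synthetase, rose from 229.5 ± 38.6 to 466 ± 97.9 CPM (0.0449), and Idh3a, of the NAD-dependent isocitrate dehydrogenase, from 180 ± 28.7 to 337 ± 48.9 CPM (0.0452). The Mdh2 call held only when CRS-2 was the library left out (adjusted p = 0.0458), and those of Sucla2 and Idh3a were lost without any 1 library, with adjusted p up to 0.185 and 0.186. With library totals alone the 3 calls were lost, at adjusted p of 0.0554 for Mdh2, 0.0761 for Sucla2 and 0.0861 for Idh3a, and the calls of Sucla2 and Idh3a were also lost with DESeq2 size factors (0.0604 and 0.0521), upper quartile factors (0.0637 and 0.0726) and every gene with at least 1 count (0.0506 and 0.0567). Citrate synthase, Cs, was at 129 ± 56.7 and 124 ± 48.4 CPM. Of 15 genes of the outer membrane, import machinery and carriers, 0 passed in edgeR. The median log2 fold change of the 15 was 0.34, and 12 lay above 0. Every CRS library lay above every noCRS library for 53.3% of them, where 10.1% of all genes did so. At unadjusted p under 0.05 in edgeR 7 of the 15 were higher, where 9.67% of all genes were. DESeq2 called 6 (6.84% of all genes higher) and limma-voom 3 (2.93%), all higher. Nearest was Slc25a3, the phosphate carrier, at 310 ± 66.6 and 590 ± 80.7 CPM (adjusted p = 0.0502).

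Regulators of mitochondrial biogenesis gave no common direction. Of 13 listed, 12 were tested and 0 passed in edgeR, DESeq2 or limma-voom. In edgeR 2 were higher at unadjusted p under 0.05 (Gabpb1 and Tfb2m), where 9.67% of all genes were. The median was 0.52 with values from -1.30 for Polrmt to 3.04 for Esrrg, which is near 1 CPM. Ppargc1a, the coactivator PGC-1α, was at 63.9, 41.4 and 72.1 CPM in noCRS and 48.3, 14.5, 18.6 and 38.8 CPM in CRS, with overlap (log2 fold change -0.98, edgeR adjusted p = 0.395). Nrf1 was at 42.5 ± 2.06 and 23.4 ± 11.3 CPM, with every CRS library below every noCRS library (-0.86, adjusted p = 0.520). Gabpa, the DNA-binding subunit of GABP, was at 38.1 ± 11.2 and 51.7 ± 17.4 CPM.

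Some members carry uncertainty from how reads are assigned. Exons of 30 of the 89 members share bases with another gene, and the shared part exceeds 10% of exon length in 11, most in Atp5o (43.8%), Ndufb6 (39.0%) and Ndufa13 (29.98%), so reads there cannot be told apart without strand. Cycs, Ndufa10, Atp5g1 and Sdhc share no exon base with another gene. Many members have processed pseudogenes in the mouse genome, and the sources used here do not state how multiply aligned reads were treated. Of the 13 pseudogene names left out, Ndufb1-ps had the most counts, at 971 to 1853 per library, and all 13 together summed to 42.7 to 59.1 CPM in noCRS and 60.4 to 65.1 CPM in CRS.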

How the data were processed

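Bulk RNA-seq of 7 libraries was analysed, 3 noCRS and 4 CRS. The authors deposited raw counts per gene with exon coordinates and lengths. Per the submitters' processing notes, the tools were, without versions, featureCounts, HISAT, HISAT2, DESeq2 and FastQC on build GRCm38; column names resemble another aligner's output, so the aligner was not settled. Per the labels' protocols, the TruePrep kit was used, which does not mark strand.

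The edgeR 4.0.16 fit (R 4.3.3) used TMM scaling, default expression filter, a quasi-likelihood test of CRS over noCRS without covariates, 2-sided, Benjamini-Hochberg adjustment over 17833 genes, threshold 0.05. Members are rows of that fit, and no test was run over any list. The values of 1 member are not reported here but enter all counts and medians. Exon overlap used GenomicRanges 1.54.1 and the deposited coordinates. Members, lists and tests were chosen with earlier results of these data known. Full values were given for called members, the 3 of smallest p, the most abundant and the lowest per complex, complex II, and isoform sets; pathway genes shown are called genes and those of smallest p, and others, such as Cs, Gabpa, mt-Cytb and mt-Atp6, were chosen after their values were seen. Alternatives included DESeq2 1.42.0 and limma 3.58.1 (voom, quality weights), 4 changes of scaling, 2 of the low-count filter, 2 other thresholds, each library left out, and a replicate block. The fit was also run on counts simulated from its own means and dispersions, which cannot test whether its model holds for these libraries.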

Additional observations from a re-analysis of the deposited data

Results flagged for a closer look

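Among 39 sets of 4 CRS values examined (members and complex sums), 5 had 1 library far from the other 3 by Dixon's criterion for 4 values, and chance alone flags about 1 set in 20. Uqcr11 was at 259.8 CPM in CRS-2 against 192 to 196.5 CPM in the others, and the complex III sum at 2471 CPM in CRS-2 against 2034 to 2106 CPM. Ndufv1 was at 165 CPM in CRS-3 against 203 to 205 CPM. Cox7a2 was at 157.5 CPM in CRS-1 against 176 to 179 CPM. Cox4i2 was at 0 CPM in CRS-2 against 2.21 to 2.58 CPM.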

How the results depend on the processing

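Directions were steadier than calls. Over 16 other fits, 70 to 81 members had a log2 fold change above 0, and the members' median exceeded that of all genes by 0.36 to 0.49. Calls over all genes and among members, 410 and 3 as reported, were 1631 and 18 with DESeq2, 639 and 6 with limma-voom, 312 and 1 with library totals alone, 350 and 1 for genes with at least 1 count, and 568 and 5 for at least 10 counts in every library of a group. They were 96 and 0 at an adjusted p of 0.01 and 714 and 7 at 0.1. Leaving out 1 library gave 142 to 352 and 0 to 1.

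With a replicate block, 12 genes and 0 members were called. Same-numbered libraries did not deviate together (correlations -0.003 to 0.023), so no pairing by number was seen. These correlations cannot exclude a pairing.

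Scaling by library totals moved the all-gene median from -0.02 to -0.17 and the split of calls from 369 of 410 higher to 248 of 312. The medians became 0.26 for all members, and 0.22, 0.18, 0.37 and 0.28 for complexes I, II, III and V; its 1 called member was Sdhc, lower, and Cycs, Atp5g1 and Ndufa10 were at adjusted p of 0.0507, 0.0741 and 0.0893. With 1 library left out, the median ran from 0.21 to 0.37 for complex II and 0.42 to 0.56 for complex III. Sign changed for Ndufc2 (-0.018) and Sdhd (-0.045) with library totals, and for Atp5g2 with limma-voom (0.21). With 1 library left out, log2 fold changes ran from -0.30 to 0.47 for Atp5g2, -0.011 to 0.26 for Ndufc2, -0.066 to 2.84 for Cox6a2 and -1.02 to 0.17 for Ndufa11b. The causes were not tested. Depth limits the rare isoforms, which have few counts in each library.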
